A study of Bos taurus with 9 samples.

Results

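Lipid droplets store triacylglycerol, and the genes described here encode the proteins that coat the droplets and the enzymes that empty them. The list holds 10 genes, and every probe set annotated with exactly 1 of their symbols was taken, which gave 12 of the 24016 probe sets tested and 9 of the 9155 genes with a probe set of their own. MGLL, the lipase that completes triacylglycerol breakdown, had no such probe set and is not analysed here, and neither is PLIN1, the major droplet coat of adipocytes. The groups were abdominal adipose tissue, subcutaneous adipose tissue and longissimus dorsi muscle, the skeletal muscle along the back, with 3 arrays each. All samples came from male Yan yellow cattle aged 24 months that were reared under the same conditions and given no treatment that the labels name. The labels give the number of bulls as 9 without tying samples to animals, so p-values reflect only how far these arrays spread, and some of that spread may be technical. The number of arrays limits the precision.

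White adipocytes hold 1 large droplet, whereas muscle fibres keep small droplets next to the mitochondria that burn their fatty acids. CIDE proteins enlarge droplets by passing lipid from one to another, and perilipins (PLIN genes) coat the surface and control which lipases reach it. In lipolysis PNPLA2 removes a fatty acid from triacylglycerol, LIPE acts on the diacylglycerol left over, and MGLL on the monoacylglycerol. G0S2 inhibits PNPLA2, and protein kinase A, whose regulatory subunits include PRKAR2B, starts the process when cyclic AMP rises.

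Values are deposited intensities on a log2 scale, 1 per probe set and array, so a difference of 1 is a doubling. The median over all probe sets lay between 5.89 and 5.92 on 5 adipose arrays and at 5.87 on subcutaneous replicate 3, against 5.75 to 5.79 on the muscle arrays. Means under 6 are treated as near background, and differences that involve them have no exact size. The labelled tissues carried their defining markers. The summed intensity of 10 adipocyte markers outside the list, on the log2 scale, was 15.50 to 15.65 in abdominal fat, 15.12 to 15.39 in subcutaneous fat and 12.53 to 13.46 in muscle, and that of 12 skeletal muscle markers was 11.74 to 12.70, 11.83 to 12.16 and 16.29 to 16.52 in the same tissues. Of these 12, 10 were lower in adipose tissue and 2 higher, MYH7 (0.60) and CKM (1.46), by the brightest probe set of each. Another probe set of each differed by -7.16 and -7.65. On abdominal replicate 1 the brightest MYH7 and CKM probe sets read 11.46 and 10.54, against a sum of 12.38 for the 12 markers. The summed markers of several other cell types were also brighter in fat, though not every marker was. Of the 6 endothelial markers 5 were higher. VWF did not pass (-0.04, limma adjusted p = 0.866) and was lower by its other probe set (-0.50). Of 4 blood markers 1 was higher in fat and 2 lower. The 6 endothelial markers summed to 12.09 to 12.29 in abdominal and 11.61 to 11.66 in subcutaneous fat, against 9.29 to 9.59 in muscle, and the 4 macrophage markers to 11.88 to 12.92 and 11.97 to 13.04, against 9.24 to 10.68. The 5 fibroblast and preadipocyte markers summed to 13.84 to 14.28 in abdominal and 14.09 to 14.33 in subcutaneous fat, against 12.48 to 13.08 in muscle. The 5 pericyte and smooth muscle markers summed to 13.29 to 13.86, 12.92 to 13.505 and 11.55 to 11.62 in the same tissues. Control probe sets at the 3' and 5' ends of a transcript give a sign of RNA integrity. For beta-actin the 3' to 5' ratio was 2.24 to 5.69 in abdominal and 3.86 to 8.17 in subcutaneous fat, against 0.96 to 1.04 in muscle. For GAPDH it was 1.26 to 1.62 and 1.21 to 1.74, against 0.94 to 1.01. The part that these markers and these ratios play in the differences between fat and muscle was not tested. In whole tissue, fewer cells of a type and less RNA per cell cannot be told apart.

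**Figure D1:**
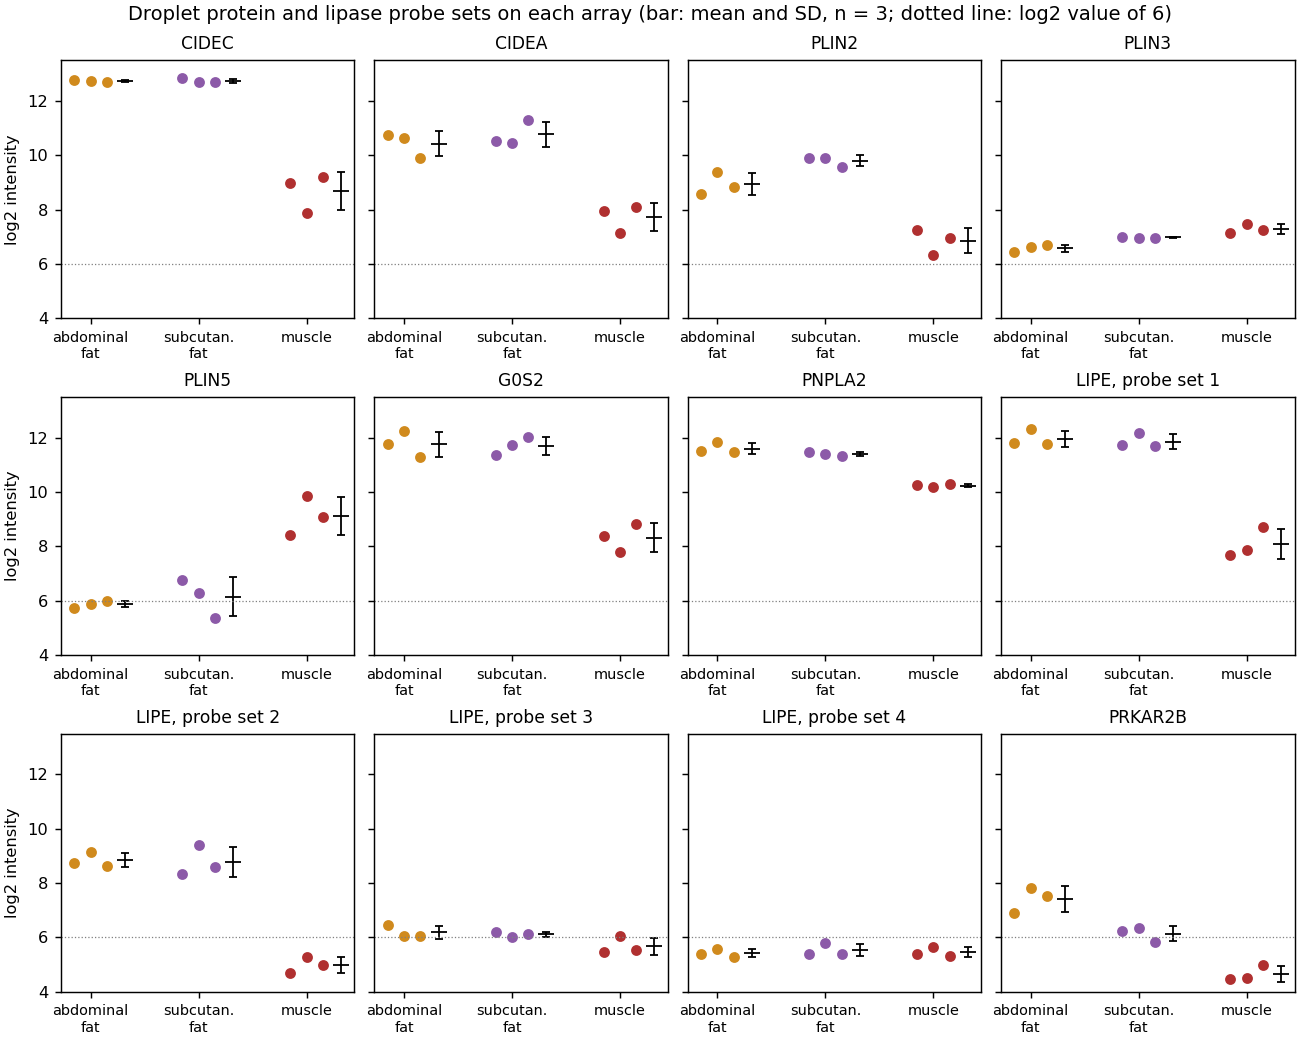
Log2 intensity of the 12 probe sets on every array, with abdominal fat, subcutaneous fat and muscle from left to right in each panel; points are arrays, bars are the mean and SD of 3 arrays and the dotted line is the log2 value of 6, with the LIPE probe sets numbered from the brightest. CIDEC, CIDEA, PLIN2, G0S2, PNPLA2, PRKAR2B and the brighter pair of LIPE probe sets lie higher on every adipose array than on any muscle array, and PLIN3 and PLIN5 lie lower.

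Adipose tissue was set against muscle as storage tissue against oxidative tissue, with the mean of both depots as the adipose value. By the brightest probe set of each gene, CIDEC, CIDEA, the lipases PNPLA2 and LIPE and the inhibitor G0S2 read higher in fat. PLIN5, the perilipin of oxidative tissue, read lower. CIDEC was 16.6-fold higher, LIPE 14.1-fold, G0S2 10.6-fold, CIDEA 7.31-fold, PLIN2 5.69-fold, PRKAR2B 4.34-fold and PNPLA2 2.40-fold, while PLIN5 was 8.64-fold and PLIN3 1.43-fold lower. In limma, with Benjamini-Hochberg adjustment over all probe sets, 11 of the 12 probe sets passed an adjusted p of 0.05, against 52.6% of all probe sets. Of these, 9 were higher in adipose tissue (26.2% of all probe sets were) and 2 lower (26.4% of all). Adipose and muscle arrays did not overlap for 10 of the 12, against 44.8% of all probe sets. The median difference was 2.31 over the 12 and -0.06 over all probe sets.

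**Figure D2:**
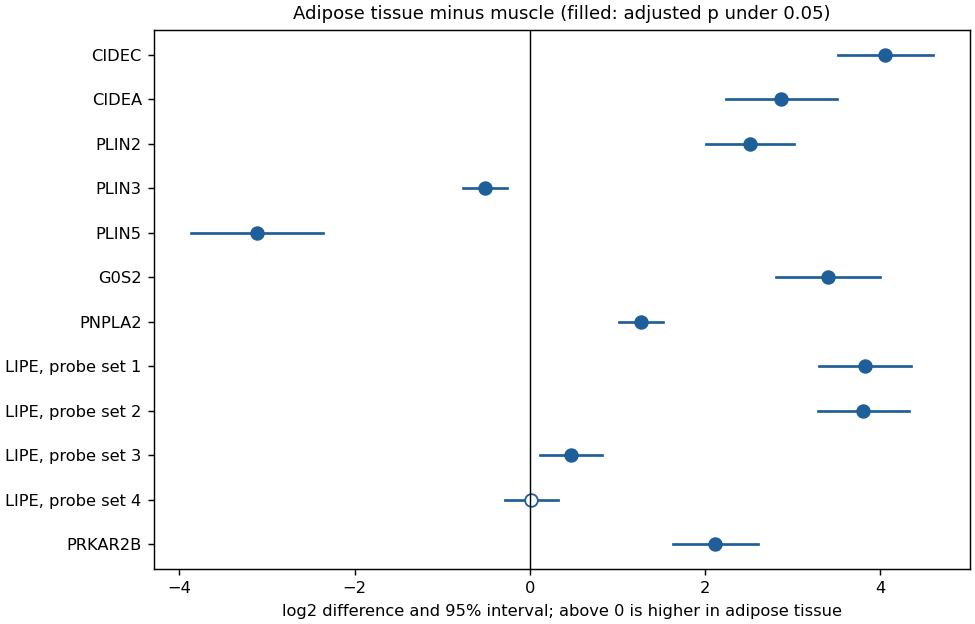
Difference between adipose tissue and muscle on the log2 scale for each of the 12 probe sets, with its 95% interval; filled points passed an adjusted p of 0.05. CIDEC (4.06) and LIPE (3.82) have the highest values and PLIN5 (-3.11) the lowest.

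CIDEC, which sits at droplet contact sites and drives the growth of the large adipocyte droplet, read 12.76, 12.74 and 12.70 in abdominal fat, 12.83, 12.69 and 12.71 in subcutaneous fat and 8.96, 7.89 and 9.20 in muscle. The 6 adipose arrays lay within a narrow band and the 3 muscle arrays far below it, with muscle replicate 2 lowest. The difference was 4.06 ± 0.24 (SE, 6 adipose against 3 muscle arrays; 95% interval 3.52 to 4.60; limma adjusted p = 9.11e-07). The SD was 0.03 in abdominal fat, 0.08 in subcutaneous fat and 0.70 for muscle. The fit assumed a single spread shared by the 3 tissues, which these SDs do not bear out. The SE, interval and p-value of CIDEC therefore understate the muscle spread. The adipose values were within about 1 log2 unit of the brightest probe set of each adipose array (13.65 to 13.81), and whether they are compressed there was not tested.

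CIDEA is its relative, known in mice mainly from brown fat and in humans also from white fat. It read 10.76, 10.64 and 9.89 in abdominal fat, 10.53, 10.46 and 11.31 in subcutaneous fat and 7.95, 7.15 and 8.08 in muscle. Every adipose array lay above every muscle array, and the depots overlapped. CIDEA was 2.87 ± 0.28 higher in adipose tissue (95% interval 2.24 to 3.50; limma adjusted p = 2.03e-05). Of the other brown fat markers, the uncoupling protein UCP1 stood near background in all tissues, with means of 3.86 in abdominal fat, 3.22 in subcutaneous fat and 3.41 for muscle. On the abdominal arrays UCP1 read 3.22, 5.48 and 2.88, so replicate 2 raised that mean. The coactivator PPARGC1A and the respiratory chain subunit COX7A1, which muscle also expresses, were 2.98 and 3.70 lower in adipose tissue (differences -2.98 and -3.70; limma adjusted p = 3.24e-05 and 2.07e-08). PPARGC1A had means under 6 in abdominal (4.95) and subcutaneous fat (4.55).

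The perilipins moved in both directions. PLIN2, the coat of small droplets in most cell types, read 8.57, 9.37 and 8.84 in abdominal fat, 9.91, 9.91 and 9.56 in subcutaneous fat and 7.26, 6.34 and 6.96 in muscle. The subcutaneous arrays were highest, the abdominal arrays next and the muscle arrays lowest, with no overlap between tissues. Against muscle PLIN2 was 2.51 ± 0.23 higher in adipose tissue (95% interval 2.0 to 3.01; limma adjusted p = 1.17e-05).

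PLIN5, the perilipin of heart and skeletal muscle, binds PNPLA2 and holds droplets against mitochondria. It read 5.74, 5.88 and 5.98 in abdominal fat, 6.78, 6.28 and 5.36 in subcutaneous fat and 8.43, 9.84 and 9.07 in muscle. All 3 muscle arrays were above all adipose arrays, with muscle replicate 2 highest. The mean was under 6 in abdominal fat (5.87) and just above it in subcutaneous fat (6.14). The difference was -3.11 ± 0.34 (95% interval -3.86 to -2.36; limma adjusted p = 3.78e-05).

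PLIN3, a perilipin that moves between cytosol and newly formed droplets, read 6.43, 6.61 and 6.69 in abdominal fat, 6.99, 6.96 and 6.96 in subcutaneous fat and 7.13, 7.48 and 7.25 in muscle. The tissues did not overlap, and abdominal fat was lowest. PLIN3 differed by -0.51 ± 0.11 (95% interval -0.76 to -0.26; limma adjusted p = 0.00354). Its SD of 0.02 in subcutaneous fat is narrow in part because the deposited table gives replicates 2 and 3 of that tissue the same value to within 0.0001 on the log2 scale. Such shared values occur on 35.7% of all probe sets. In the reference gene table PLIN5 lies next to PLIN4, a perilipin with no probe set of its own here, and PLIN3 lies 8 protein-coding genes away on the same chromosome; PLIN2 and the CIDE genes lie on other chromosomes.

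The lipases were higher in adipose tissue, PNPLA2 by less than LIPE. PNPLA2, which starts lipolysis in fat and muscle alike, read 11.50, 11.83 and 11.46 in abdominal fat, 11.45, 11.39 and 11.33 in subcutaneous fat and 10.24, 10.17 and 10.28 in muscle. Muscle values were tight and below every adipose value. The difference was 1.27 ± 0.11 (95% interval 1.01 to 1.52; limma adjusted p = 1.07e-05).

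LIPE, hormone-sensitive lipase, was measured by 4 probe sets. The brightest read 11.80, 12.30 and 11.76 in abdominal fat, 11.72, 12.16 and 11.69 in subcutaneous fat and 7.69, 7.85 and 8.72 in muscle. The next read 8.75, 9.13 and 8.63 in abdominal fat, 8.34, 9.39 and 8.57 in subcutaneous fat and 4.71, 5.29 and 5.00 in muscle. Both separated the tissues fully and gave like differences, 3.82 ± 0.24 and 3.80 ± 0.23 (limma adjusted p = 1.09e-06 and 1.05e-06), although the muscle mean of the dimmer one was under 6. The other LIPE probe sets were dim. The brighter of them read 6.02 to 6.46 in adipose tissue and 5.46 to 6.04 in muscle, where its mean was under 6 (5.67), and differed by 0.47 ± 0.16 (limma adjusted p = 0.0290), and its adipose and muscle arrays overlapped. It no longer passed with muscle replicate 1 (adjusted p = 0.124) or 3 (0.0937) left out, without replicate 1 of abdominal fat (0.0559), without subcutaneous replicate 1 (0.0562) or 3 (0.0510), and after centring each array on its median (0.0857). The dimmest, with tissue means of 5.42, 5.52 and 5.45 in abdominal fat, subcutaneous fat and muscle, differed by 0.02 (95% interval -0.29 to 0.32; limma adjusted p = 0.933), and 4 of its 9 arrays held 1 shared value.

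G0S2, the inhibitor of PNPLA2, read 11.75, 12.22 and 11.29 in abdominal fat, 11.35, 11.71 and 12.02 in subcutaneous fat and 8.37, 7.77 and 8.82 in muscle. The adipose arrays of both depots overlapped and lay well above the muscle arrays. G0S2 was 3.40 ± 0.26 higher in adipose tissue (95% interval 2.81 to 4.00; limma adjusted p = 4.62e-06).

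PRKAR2B encodes the regulatory subunit of protein kinase A that predominates in mouse adipocytes. It read 6.88, 7.80 and 7.53 in abdominal fat, 6.25, 6.34 and 5.83 in subcutaneous fat and 4.47, 4.50 and 5.00 in muscle. The tissues did not overlap, and muscle was near background. PRKAR2B was 2.12 ± 0.22 higher in adipose tissue (95% interval 1.63 to 2.60; limma adjusted p = 2.69e-05).

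Each depot was also set against muscle by itself, with the muscle arrays shared by both comparisons. Abdominal fat passed for 11 of the 12 probe sets (46.6% of all probe sets), 9 higher (23.5% of all) and 2 lower (23.1%). Subcutaneous fat passed for 9 (47% of all), 8 higher (24.6%) and 1 lower (22.4%). Arrays did not overlap for 54.9% of all probe sets in the abdominal and 54.3% in the subcutaneous comparison. CIDEC was 4.05 higher in abdominal and 4.06 in subcutaneous fat, G0S2 3.43 and 3.37, LIPE by its brightest probe set 3.87 and 3.77, CIDEA 2.70 and 3.04, and PNPLA2 1.37 and 1.16. PLIN2 was 2.08 higher in abdominal and 2.94 in subcutaneous fat, and PRKAR2B 2.75 and 1.49. PLIN5 differed by -3.25 in abdominal and -2.97 in subcutaneous fat. For PLIN3 the abdominal difference passed (-0.71 ± 0.13; limma adjusted p = 0.00141), and the subcutaneous one did not (-0.31 ± 0.13; adjusted p = 0.0711). With each array centred on its median, the PLIN3 difference in subcutaneous fat was -0.44 and passed (adjusted p = 0.0211), and it also passed without muscle replicate 1 (adjusted p = 0.0493). The third LIPE probe set had an adjusted p of 0.0437 in abdominal and 0.0722 in subcutaneous fat. Its abdominal call was lost without any single array other than muscle replicate 2, at adjusted p values up to 0.159, and its subcutaneous difference passed without muscle replicate 2 (adjusted p = 0.0125).

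Between the depots, 1 of the 12 probe sets passed, against 1.31% of all probe sets (0.641% higher and 0.666% lower in abdominal fat). This was PRKAR2B, with 7.41 ± 0.48 in abdominal and 6.14 ± 0.27 in subcutaneous fat (SD, n = 3 each), a difference of 1.27 ± 0.25 (SE; 95% interval 0.70 to 1.83; limma adjusted p = 0.0463). All 3 abdominal arrays were above all 3 subcutaneous arrays. The call stood close to the threshold. PRKAR2B no longer passed when muscle replicate 1 (adjusted p = 0.0703) or 2 (0.0550) was left out, nor without abdominal replicate 2 (0.137) or 3 (0.144), nor without subcutaneous replicate 1 (0.110), 2 (0.0906) or 3 (0.138). The difference itself was 1.07 to 1.53 with each array left out in turn. The summed endothelial markers were also higher on each abdominal array than on any subcutaneous array, and 3 mesothelial markers summed to 6.77 to 8.99 in abdominal and 6.91 to 7.44 in subcutaneous fat. Their part in the PRKAR2B difference was not tested.

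**Figure D3:**
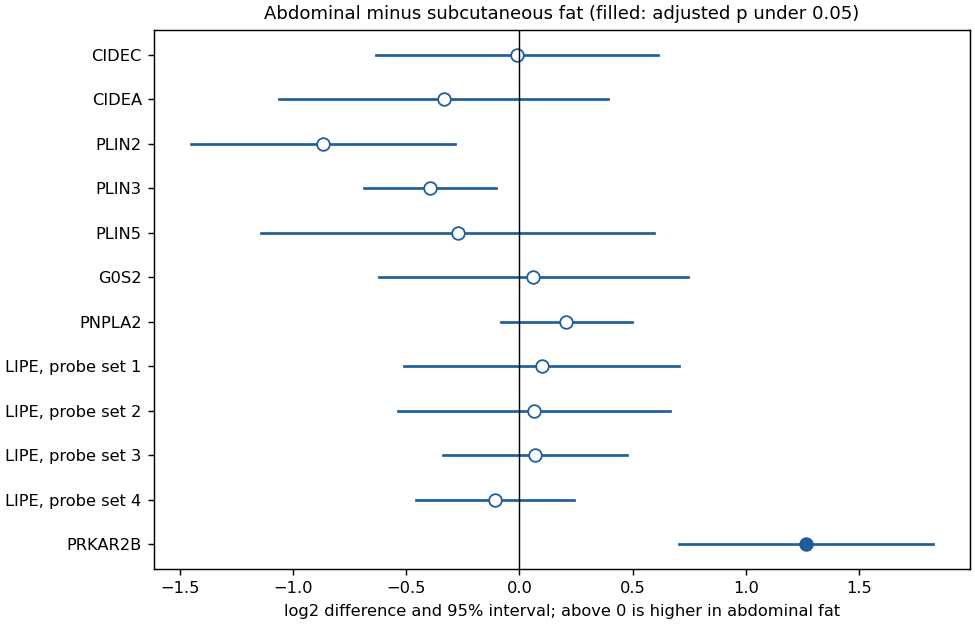
Difference between abdominal and subcutaneous fat on the log2 scale for each of the 12 probe sets, with its 95% interval; the filled point passed an adjusted p of 0.05. PRKAR2B (1.27) lies above 0, and PLIN2 (-0.87) and PLIN3 (-0.40) lie below it with intervals that leave out 0 but with adjusted p values over the threshold.

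PLIN2 and PLIN3 were lower in each abdominal array than in any subcutaneous array, and neither passed. PLIN2 averaged 8.93 ± 0.41 in abdominal and 9.79 ± 0.20 in subcutaneous fat (SD, n = 3 each), a difference of -0.87 (95% interval -1.45 to -0.28; limma adjusted p = 0.149). PLIN3 averaged 6.58 ± 0.13 in abdominal and 6.97 ± 0.02 in subcutaneous fat, a difference of -0.40 (95% interval -0.69 to -0.11; limma adjusted p = 0.184). The depots did not overlap for 4 of the 12 probe sets, against 23.6% of all. For CIDEC the depot difference was -0.01, with an interval of -0.63 to 0.61, and for G0S2 it was 0.06 (-0.62 to 0.74). Depot intervals use a spread shared with the muscle arrays. For CIDEC the SD was 0.70 in muscle, against 0.03 in abdominal and 0.08 in subcutaneous fat, so muscle widens its depot interval. LIPE by its brightest probe set differed by 0.10 (-0.51 to 0.71), CIDEA by -0.34 (-1.06 to 0.39), PNPLA2 by 0.21 (-0.08 to 0.50) and PLIN5 by -0.27 (-1.14 to 0.59). None of these passed, which does not show that the depots were alike.

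The muscle arrays differed among themselves for the droplet genes. Muscle replicate 2 was the lowest of the 3 muscle arrays for CIDEC, CIDEA, PLIN2, G0S2 and PNPLA2, and the highest for PLIN5 and PLIN3. By the brightest probe set of each gene, it was lowest for 5 of the 9 genes and for 30.1% of all 9155 genes, and highest for 2 of the 9 (39.3% of all genes). Muscle replicate 1 was lowest for the other 4, PLIN3, PLIN5, LIPE and PRKAR2B (29.1% of all genes were lowest there). Muscle replicate 3 was highest for 6 of the 9 (33.7% of all genes) and for 7 of 10 adipocyte markers outside the list. Replicate 2 was lowest for 10 of these 10 markers, among them adiponectin, ADIPOQ (6.86, against 7.85 and 8.20 on replicates 1 and 3), and the fatty acid carrier FABP4 (11.18, against 12.46 and 12.08). Of the 12 skeletal muscle markers, 8 were highest on muscle replicate 2, as were 39.3% of all genes. Their part in the muscle values of the droplet genes was not tested. Without muscle replicate 2 the adipose difference was 3.66 for CIDEC, 2.58 for CIDEA, 3.13 for G0S2, 2.25 for PLIN2 and -2.75 for PLIN5, and each still passed. The 10 markers differed between adipose tissue and muscle by 0.74 to 4.75, with a median of 3.86.

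The genes with the profile most like that of CIDEC over the 9 arrays, out of 6771 genes, were the retinol carrier RBP4, the glucose transport regulator TRARG1, the adipocyte regulator PPARG, the inhibitory G protein subunit GNAI1 and the lipogenic protein THRSP. Likeness was the root mean square gap between log2 profiles centred on their own means, and it was 0.16 for RBP4 and 0.28 to 0.32 for the others. All 9 arrays entered this choice, so a low value on the same muscle array is part of it and not a separate finding. For PLIN5 the nearest were PIERCE2 (0.28), the Z-disc protein PDLIM3 (0.33), ADSS1, the muscle isozyme of adenylosuccinate synthase (0.38), the inhibin subunit INHA (0.42) and BIN1, which shapes the membrane of muscle T-tubules (0.43). The adipose means of PIERCE2, PDLIM3 and INHA were under 6, from 3.64 to 5.72.

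**Figure D4:**
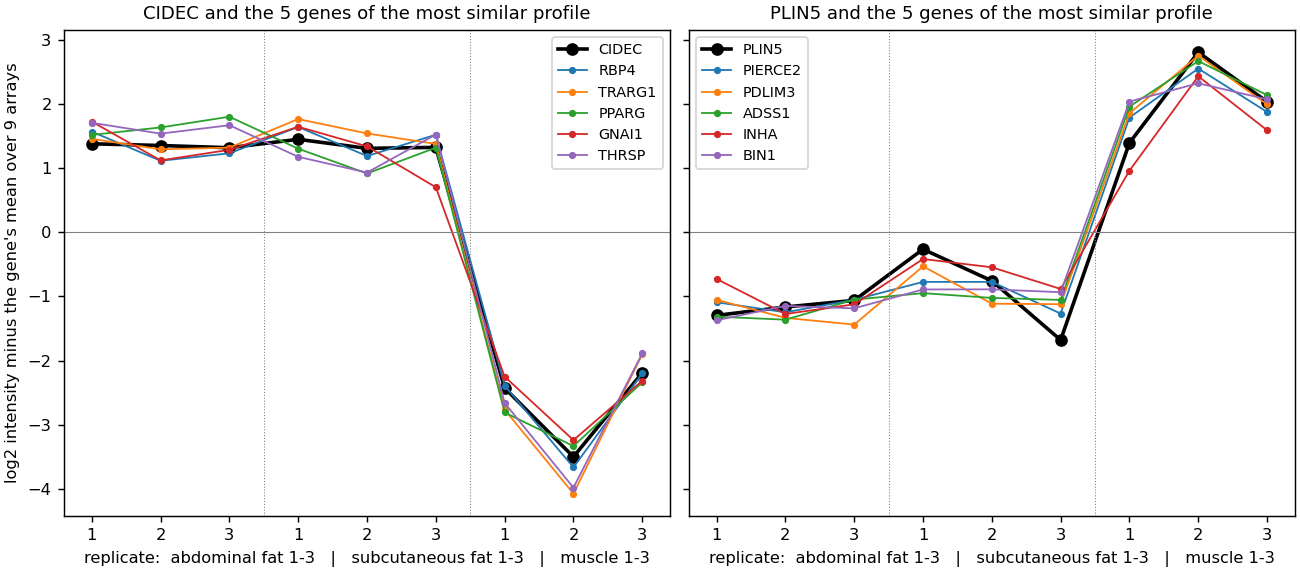
Log2 intensity minus each gene's mean over the 9 arrays, for CIDEC (left) and PLIN5 (right, both in black) and the 5 genes with the most similar profile; arrays run from abdominal fat through subcutaneous fat to muscle. The genes were chosen for following CIDEC, which is lower in muscle, and PLIN5, which is higher in muscle, on these same arrays.

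The rest of the droplet and lipolysis pathway was described from lists of other genes, with the brightest probe set of each. Over all 9155 genes, 32% were higher and 29.5% lower in adipose tissue. Of 26 other droplet proteins 16 were measured, of which 8 were higher and 3 lower, with a median of 0.49 (-0.02 over all genes). Seipin, BSCL2, which marks the sites where droplets form, read 10.96, 10.93 and 10.97 in abdominal fat, 11.17, 11.10 and 10.995 in subcutaneous fat and 8.72, 7.95 and 8.92 in muscle. Its partner in droplet assembly, LDAF1, read 8.88, 8.63 and 8.84 in abdominal fat, 8.72, 9.06 and 9.02 in subcutaneous fat and 11.95, 12.01 and 12.17 in muscle. Both genes separated the tissues fully, in opposite directions. BSCL2 was 2.49 ± 0.19 higher in adipose tissue (limma adjusted p = 3.77e-06), and LDAF1 differed by -3.18 ± 0.12 (adjusted p = 5.10e-08), with -3.88 by its other probe set. The other BSCL2 probe set was near background and differed by -0.08 (adjusted p = 0.568). FITM2, a membrane protein of droplet budding, was 2.16 higher and the caveolar coat protein CAVIN1 2.05 higher. The microtubule-severing protein SPAST (-1.45) and SPART (-0.57), both of which bind droplets, were lower. SPART no longer passed when muscle replicate 1 (adjusted p = 0.0622) or 2 (0.0675) was left out. ABHD5, the coactivator of PNPLA2, was chosen after its values were seen. It was 0.61 ± 0.14 higher (adjusted p = 0.00494), with a muscle mean under 6 (5.48).

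**Figure D5:**
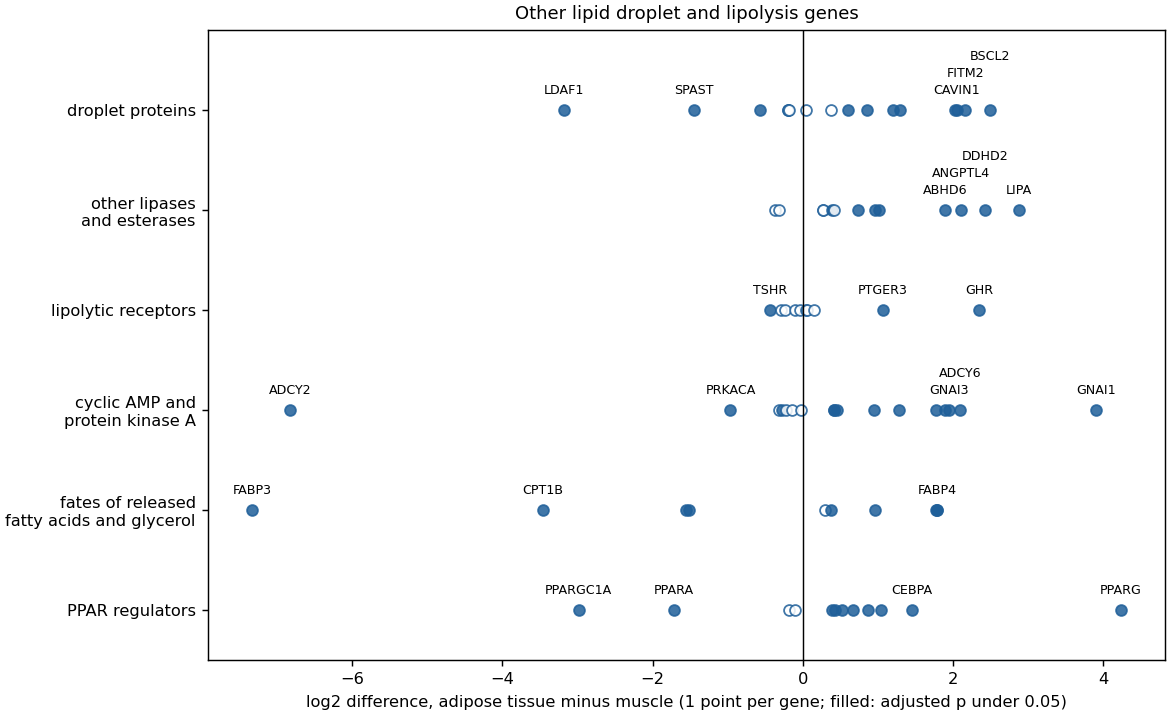
Difference between adipose tissue and muscle on the log2 scale for the measured genes of 6 lists, 1 point per gene; filled points passed an adjusted p of 0.05 and named points are among those given in the text. FABP3 (-7.33) and ADCY2 (-6.82) have the lowest values and PPARG (4.24) the highest.

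Of 22 other lipases, esterases and their helpers 13 were measured, of which 8 were higher and none lower (median 0.74). Lysosomal acid lipase, LIPA (2.88), the phospholipase and triacylglycerol hydrolase DDHD2 (2.42), ANGPTL4, an inhibitor of lipoprotein lipase (2.11), and the monoacylglycerol lipase ABHD6 (1.89) were among those higher. Without muscle replicate 1 or 3, 1 member of the list was lower. Of 16 receptors that regulate lipolysis 10 were measured. The growth hormone receptor GHR (2.35) and the prostaglandin E receptor PTGER3 (1.07) were higher and TSHR was lower (-0.43, adjusted p = 0.0318), with a median of 0.01. PTGER3 had a muscle mean under 6 (5.76). TSHR was near background in every tissue (means of 3.58, 3.61 and 4.03 in abdominal fat, subcutaneous fat and muscle). TSHR no longer passed when muscle replicate 1 (adjusted p = 0.145) or 2 (0.0662) was left out, nor without abdominal replicate 2 (0.0639) or 3 (0.0513), or subcutaneous replicate 1 (0.0623). GHR had 11 probe sets, and the 10 dimmer ones were near background. Most of these pointed the other way, with differences from -0.47 to 0.04, and a difference of -0.30 among them passed (limma adjusted p = 0.028). The beta-3 adrenergic receptor ADRB3, chosen after its values were seen, differed by -0.04 ± 0.14 (limma adjusted p = 0.843), with means of 6.70 in abdominal fat, 6.31 in subcutaneous fat and 6.55 for muscle.

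Of 31 genes of cyclic AMP signalling and protein kinase A 17 were measured, with 10 higher and 3 lower (median 0.42). The inhibitory G protein subunits GNAI1 (3.90) and GNAI3 (1.95) and the adenylyl cyclase ADCY6 (2.09) were among those higher, although the other ADCY6 probe set differed by 0.28 (adjusted p = 0.117). The cyclase ADCY2 was lower by the largest amount of the list (-6.82), and its means of 4.56 for abdominal fat and 3.35 for subcutaneous fat make this size inexact. The catalytic subunit PRKACA (-0.96) and the phosphodiesterase PDE8A (-0.28, adjusted p = 0.0423) were lower. The PDE8A call was lost without any single array other than muscle replicate 2, at adjusted p values up to 0.115. The regulatory subunits of the kinase were set beside PRKAR2B after their values were seen. PRKAR1B was 0.95 ± 0.12 higher in adipose tissue (limma adjusted p = 0.00012). PRKAR1A differed by -0.03 ± 0.16 (adjusted p = 0.888) and PRKAR2A by -0.15 ± 0.10 (adjusted p = 0.241). After centring on array medians PRKAR2A was -0.27 and passed (adjusted p = 0.0419).

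Of 11 genes that handle released fatty acids and glycerol 10 were measured, with 5 higher and 4 lower (median 0.33). The fatty acid carrier FABP4 (1.79, and 3.52 by its other probe set) and the fatty acid transporter CD36 (1.78) were higher. The brightest FABP4 probe set read 13.65 on abdominal replicate 2 and 13.71 on subcutaneous replicate 2. These values are level with the highest of those arrays, and whether they are compressed there was not tested. The muscle carrier FABP3 (-7.33), the mitochondrial carnitine transferase CPT1B (-3.46), glycerol kinase, GK (-1.55), and the oxidation enzyme ACADVL (-1.51) were lower. Both adipose means of CPT1B and of GK were under 6, as was the subcutaneous mean of FABP3 (5.34). Of 14 regulators related to the PPAR receptors, which control many droplet genes, 12 were measured, with 8 higher and 2 lower (median 0.48). PPARG (4.24) and CEBPA (1.45), a partner in adipocyte differentiation, were higher, and the oxidative coactivator PPARGC1A (-2.98) and the fatty acid sensor PPARA (-1.71) were lower. CEBPA was under 6 in every tissue (means of 5.43, 5.66 and 4.10 in abdominal fat, subcutaneous fat and muscle), and PPARA read 5.67, 5.77 and 7.42 in muscle. The means in abdominal and subcutaneous fat were under 6 for PPARGC1A (4.95 and 4.55) and PPARA (4.55 and 4.59). The other PPARA probe set was near background and differed by -0.002 (adjusted p = 0.990). The count of higher regulators was 5 without muscle replicate 1, without abdominal replicate 2, with arrays centred on their medians and with quantile normalization.

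Between the depots 3 of the 78 genes measured over these lists passed by their brightest probe set, against 0.808% of genes higher and 0.688% lower in abdominal fat. PTGER3, an inhibitor of cyclic AMP formation in adipocytes, read 7.11, 7.08 and 7.31 in abdominal and 6.42, 6.55 and 6.49 in subcutaneous fat, a difference of 0.68 (limma adjusted p = 0.0336). GK read 5.87, 6.12 and 6.01 in abdominal and 4.81, 5.00 and 4.17 in subcutaneous fat (difference 1.34; limma adjusted p = 0.0263). The diacylglycerol lipase DAGLA averaged 4.39 in abdominal and 5.37 in subcutaneous fat (difference -0.98; limma adjusted p = 0.0289), and both genes lay near background. The PTGER3 call was lost without any single adipose array or muscle replicate 1, at adjusted p values of 0.0505 to 0.116, and with the leading number of the sample titles as a replicate block (difference 0.59, adjusted p = 0.175). The GK call was lost without abdominal replicate 1, 2 or 3 or subcutaneous replicate 1 (0.0565 to 0.0861). The DAGLA call was lost without abdominal replicate 1, 2 or 3 or subcutaneous replicate 1 or 2 (0.0763 to 0.0888). Dimmer probe sets of other genes also passed and were chosen after their values were seen. For ACSL3, a droplet acyl-CoA synthetase, both dimmer probe sets were higher in abdominal fat (differences 1.10 and 1.09; limma adjusted p = 0.0336 and 0.0463), and the brightest differed by 1.03 (adjusted p = 0.0805). For CIDEB, the CIDE protein known from liver, the dimmer probe set was lower in abdominal fat (-1.02; adjusted p = 0.0446), and the brighter one differed by -0.48 (adjusted p = 0.218). Both CIDEB probe sets lay close to background. Between adipose tissue and muscle neither passed, with -0.20 for the brighter (limma adjusted p = 0.277) and 0.45 for the dimmer (0.0508).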

How the data were processed

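The authors deposited 1 intensity per probe set and array from a 1-colour Affymetrix bovine array. RMA is named in the submitters' processing notes, with no version or settings stated there. Per the labels, RNA was extracted with a lipid tissue kit named for the adipose samples. The deposited intensities ran from 3.06 to 17450.5, a linear scale, so log2 was taken with no further normalization or filter. No pair of arrays was identical over all probe sets. The 112 control probe sets were left out and 24016 tested. Names came from the array annotation, updated by gene identifier (13263 probe sets) or kept as annotated (29); 86 with several symbols and 10638 with none were not named. The reference gene table (ARS-UCD2.0) gave names and gene order only, and no sequence was used.

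A means model of the 3 tissues on all 9 arrays was fitted with limma 3.58.1 (lmFit, eBayes) in R 4.3.3, with 6 residual and 3.75 prior degrees of freedom. Tests were two-sided and adjusted by Benjamini-Hochberg over all 24016 probe sets. An SE is the moderated standard error, from a spread shared by the 3 tissues. Lists were given as counts and medians, by the brightest probe set over 9 arrays. Up to 4 passing genes per list with the largest difference, and those against the majority, were named. Members, lists, tests and alternatives were chosen with earlier results of these data known. The fit was tested on simulated data. Alternatives covered the prior, dim filter, scaling, weights, offset, title-number block, arrays fitted, ambiguous probe sets, threshold and each array left out. Tables and figures used Python 3.11.15.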

Additional observations from a re-analysis of the deposited data

Results flagged for a closer look

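PRKAR2B was the only gene of the list that passed between the depots. It was 2.75 higher than muscle in abdominal and 1.49 higher in subcutaneous fat. The difference between these, which is abdominal minus subcutaneous fat, was 1.27 (limma adjusted p = 0.0463). It was higher in 3 of 3 abdominal arrays than in any subcutaneous array, and the depots did not overlap for 23.6% of all probe sets. The call held under 9 of 21 alternatives. PLIN2 (-0.87) and PLIN3 (-0.40) did not pass, but their 95% intervals also left out 0. Groups of 3 arrays were too small to look for single outlying arrays.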

How the results depend on the processing

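Under the alternatives run, the differences between adipose tissue and muscle of CIDEC (3.66 to 4.31), CIDEA (2.58 to 3.12), PLIN2 (2.22 to 2.71), PLIN5 (-3.45 to -2.60), G0S2 (3.13 to 3.65), PNPLA2 (1.15 to 1.33), PRKAR2B (1.33 to 2.29) and the brighter pair of LIPE probe sets kept their direction and passed. PLIN3 (-0.73 to -0.41) passed under all except a required log2 difference of 1. Adipose arrays had higher medians, so centring lowers each such difference by 0.12. Requiring a log2 difference of at least 1 left 5376 probe sets called for adipose tissue, 5346 for abdominal and 5472 for subcutaneous fat against muscle and 178 between depots. Leaving out each array gave 10637 to 13111, 9129 to 12144, 9470 to 12228 and 57 to 491 in the same order, and 10 to 11, 10 to 11, 9 to 10 and 0 to 1 of the 12 members. Between depots 314 probe sets passed, 1034 with array weights and 36 at an adjusted p of 0.01. PRKAR2B, the 1 member called there, fell to 0 members called with quantile normalization (adjusted p = 0.0524), with 32 added before log2 (0.0632), with only the adipose arrays fitted (0.0641) and at the 0.01 threshold.

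With the leading title number as a replicate block, 118 probe sets and 0 members passed between depots. PRKAR2B was at 1.21 (adjusted p = 0.151) and PTGER3 at 0.59 (adjusted p = 0.175) under this replicate block. CIDEA was at 0.16 and CIDEC at 0.13, both with the sign turned. The labels do not say what the number marks, abdominal replicate 3 shares its number with no array, and same-numbered arrays correlated in their deviations from the tissue means at 0.06 to 0.42. Differently numbered arrays of different tissues correlated at -0.36 to 0.15. Between the depots, same-numbered arrays correlated at 0.34 and 0.42 and differently numbered ones at -0.36 to 0.11. The main tests did not use the number. Not every array correlated best with its own number: muscle replicate 3 did so with abdominal replicate 3, at 0.15, against 0.14 with its same-numbered subcutaneous array. Differences near 0 turned sign. The dimmest LIPE probe set was -0.10 with centring and -0.0357 with quantile normalization for adipose tissue, and -0.0534 with centring for subcutaneous fat. With each array left out it ran from -0.0609 to 0.12 for adipose tissue, -0.12 to 0.0655 for abdominal fat, -0.0561 to 0.17 for subcutaneous fat and -0.19 to 0.0170 between depots. Between depots CIDEC ran from -0.0360 to 0.0341, G0S2 from -0.17 to 0.29, PLIN5 from -0.66 to 0.0440 and the other LIPE probe sets, brightest first, from -0.0727 to 0.25, -0.15 to 0.38 and -0.0726 to 0.14. For adipose tissue ADRB3 ran from -0.20 to 0.0807 and PRKAR1A from -0.20 to 0.13. The cause of these changes was not tested. Of the 5 genes most like CIDEC and PLIN5, 5 and 3 remained by the largest gap and 4 and 4 with the probe set of the highest tissue mean.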
